A study of Saccharomyces cerevisiae with 6 samples.

Results

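Autophagy delivers cytoplasm to the yeast vacuole inside double-membrane vesicles, and vacuolar proteases then break the delivered protein down. The genes described here are those of budding yeast (Saccharomyces cerevisiae) with an ATG symbol, the autophagy-related genes, together with PEP4, PRB1, PRC1, APE1 (also called LAP4), APE3, CPS1 and DAP2, which encode the soluble and membrane-bound proteases and peptidases of the vacuole. They were chosen by the gene symbol that the platform annotation gives each probe set. The symbols picked out 46 of the 9275 non-control probe sets, which stand for 43 genes, 36 of them ATG genes and 7 protease genes, of 5656 genes in all. ATG15 has 3 of these probe sets and ATG19 has 2. The gene table of the yeast genome assembly R64 holds 37 ATG genes, so the set of 36 is not complete.

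RNA levels were compared between cells whose histone H2B carries the K123R substitution, in strain Y118, and cells with wild-type H2B, in strain Y117, with 3 arrays of each. The substitution replaces with arginine the lysine that is monoubiquitinated in yeast H2B. Early stationary phase cultures of both strains were diluted into 150 ml of rich medium (YPD) at an optical density of 0.3 and shaken for 7 hours at 30 degrees until they reached an optical density of 2, and total RNA of each culture went onto 1 Affymetrix S98 array. The strains bear different names, so any further difference between them was compared together with the substitution.

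In growing cells autophagy runs at a low rate and is restrained by the TOR kinase, and lack of nitrogen or entry into stationary phase induces it. The Atg1 kinase complex starts the process, membrane is supplied by Atg9 vesicles and marked by a phosphatidylinositol 3-kinase complex, and the ubiquitin-like proteins Atg8 and Atg12 are conjugated to build the vesicle. Receptors bind particular cargo to Atg8 and to the scaffold Atg11. One selective route, the cytoplasm-to-vacuole targeting pathway, is active in rich medium too and carries the aminopeptidase Ape1 and the alpha-mannosidase Ams1 to the vacuole.

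The median signal of the arrays lay between 131 and 140, in the deposited linear units, and the array of H2B K123R replicate 1 was unlike the rest. The actin control gave 1.98 times as much signal at its 3' end as at its 5' end there, against 1.395 and 1.59 times for the remaining H2B K123R cultures and 1.504 to 1.54 times for wild type. Its 99th percentile of signal was 8651, against 10240 to 11380 elsewhere. The point substitution itself is not read by these probe sets. HTB1, an H2B gene, averaged 4560 ± 458 in H2B K123R and 5836 ± 358 in wild type (SD, n = 3 each, as throughout), while the probe set of the other H2B gene, HTB2, averaged 4.14 ± 2.48 and 6.78 ± 4.001. Those signals are no higher than the 4 mouse control probe sets gave on these yeast arrays, which reached 18.3 and serve here as the level of background. As a check of mating type, the summed signal of the 7 a-specific genes was 10690 to 11670 in H2B K123R and 13030 to 13780 in wild type, and that of the 4 alpha-specific genes was 371 to 444 and 263 to 298, with signals for a-specific genes in both strains. Of these 11 genes the a-specific MFA1 and BAR1 were lower and the alpha-specific MF(ALPHA)1 and MF(ALPHA)2 higher in H2B K123R (limma adjusted p between 0.0297 and 0.0385). A dimmer probe set of MFA1 averaged 245 ± 50.9 in H2B K123R and 344 ± 38.0 in wild type and did not pass (limma adjusted p = 0.1345). The part of array quality and of these markers in the differences below was not tested. The calls reported below for named genes of autophagy and the vacuole all held without H2B K123R replicate 1.

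Of the 46 probe sets for autophagy and vacuolar proteolysis, 10 rose in H2B K123R, none fell and 36 did not pass (limma, adjusted p under 0.05). That is 21.7% of them, against 6.68% of all 9275 probe sets called in either direction, 4.22% higher and 2.47% lower. Among the 19 probe sets brighter than the median of all, 7 rose, where 9.42% of all such probe sets were called, and 21 of the 46 had an unadjusted p under 0.05, all with positive differences, against 24.9% of all in either direction. The 10 were ATG33, ATG41, ATG11, ATG26, ATG34, ATG14, ATG42, APE1, PEP4 and PRB1. Each step of the pathway except Atg8 and Atg12 conjugation held at least 1 of them. The median log2 difference of the 46 probe sets was 0.29, on the log2(signal + 16) scale used for every difference here, while the median of all probe sets was 0.02. In all, 38 of the 46 differences were positive (82.6%), against 52.7% of all probe sets. On bulk RNA of a culture, more cells with a transcript and more transcript per cell cannot be told apart.

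The median of the group was higher on each H2B K123R array than on any wild-type array. The median over the 46 probe sets of the log2 signal minus the wild-type mean of the same probe set was 0.37, 0.27 and 0.34 on H2B K123R replicates 1, 2 and 3. It was 0.00, -0.01 and 0.03 on wild-type replicates 1, 2 and 3. The same median over all probe sets was 0.09 on H2B K123R replicate 1 and between -0.01 and 0.01 on the other 5 arrays. The 3 H2B K123R arrays lay wholly above the 3 wild-type arrays for 23 of the 46 probe sets (50.0%) and wholly below them for none, where 19.0% of all probe sets lay wholly above and 13.5% wholly below. Replicates of the genes described here scattered by a median SD of 0.16 log2 units in H2B K123R and 0.12 in wild type, against 0.19 and 0.11 for all probe sets.

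**Figure D1:**
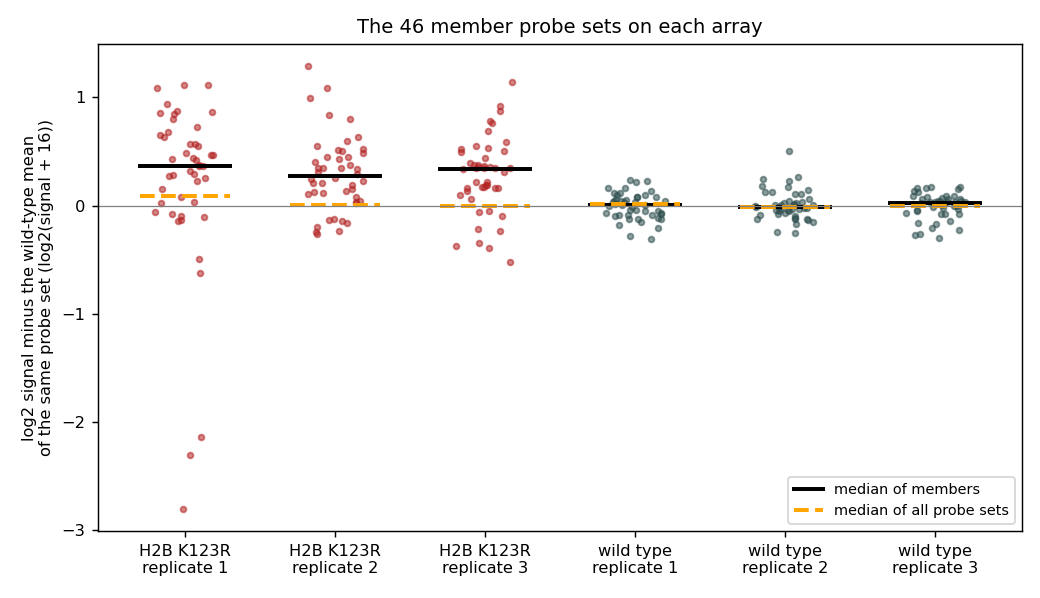
Log2 signal of each of the 46 probe sets on each of the 6 arrays (vertical axis, log2(signal + 16) minus the mean of the same probe set over the wild-type arrays), with 1 point per probe set and H2B K123R in red left of wild type in dark grey. The black bar is the median of the 46 probe sets, 0.27 to 0.37 on the H2B K123R arrays, the dashed orange bar is the median of all 9275 probe sets, and the 3 lowest points on H2B K123R replicate 1 are the probe sets of ATG15.

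The number of calls depended on single arrays more than the median difference did. It was 10 without H2B K123R replicate 1, and these were the same 10 probe sets. It was 5 without H2B K123R replicate 2 (ATG33, ATG41, ATG11, ATG26 and APE1), 1 without H2B K123R replicate 3 (ATG33), 2 without wild-type replicate 1 (ATG33 and ATG41), 1 without wild-type replicate 2 (ATG33) and 0 without wild-type replicate 3. Calls among all probe sets moved too, from 620 with all arrays to 1023, 500 and 70 without H2B K123R replicates 1, 2 and 3. They were 59, 42 and 22 without wild-type replicates 1, 2 and 3. The 10 differences were positive in each of these fits, an outcome fixed in advance. For each of the 10, every H2B K123R array lay above every wild-type array. The median difference of the 46 lay between 0.26 and 0.33. Of the 46, 16 to 23 probe sets had an unadjusted p under 0.05 in limma, and the matching share of all probe sets was not counted.

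**Figure D2:**
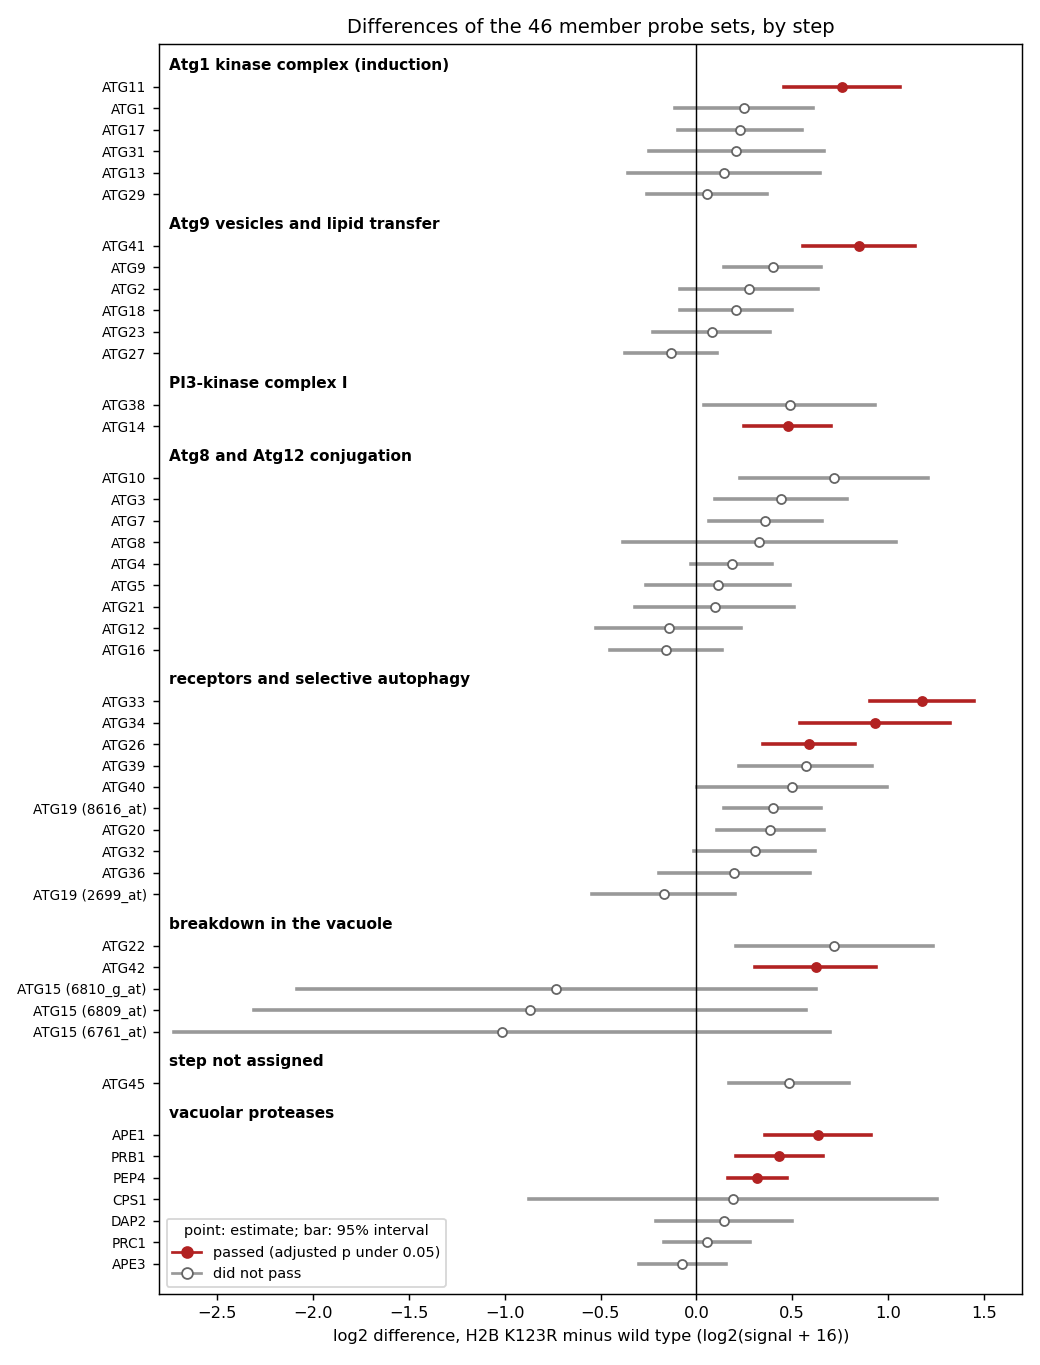
Log2 difference of H2B K123R minus wild type for each of the 46 probe sets (horizontal axis, log2(signal + 16)), grouped by step down the page, with the estimate as a point and the 95% interval of the limma fit as a bar. Filled red points passed at an adjusted p under 0.05, all 10 of them lie to the right of 0, and the widest bars belong to ATG15 and CPS1.

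Among the 6 genes of the Atg1 kinase complex and its scaffolds, ATG11 rose and the other five did not pass. ATG11 (YPR049C), the scaffold that brings cargo receptors to the kinase, had signals of 148, 125 and 140 in H2B K123R and 68.7, 77.3 and 78.3 in wild type. The lowest H2B K123R array was well above the highest wild-type array, and the log2 difference was 0.76 ± 0.13 (SE), a fold of 1.69 (limma adjusted p = 0.0240). ATG13, the regulatory subunit that TOR phosphorylates and the brightest probe set of the 6, read 173, 155 and 254 in H2B K123R and 193, 184 and 139 in wild type. Its groups overlapped, with a difference of 0.14 and a 95% interval of -0.36 to 0.65. ATG1, the kinase itself, averaged 84.3 ± 12.3 in H2B K123R and 68.3 ± 7.39 in wild type (adjusted p = 0.357). ATG17, ATG29 and ATG31, which form the scaffold of starvation-induced autophagy, were dim, with means of 26.9 to 50.0 in H2B K123R and 25.3 to 40.0 in wild type, and differed by 0.06 to 0.23 with intervals that include 0.

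Of the 6 genes that supply membrane, ATG41 rose. ATG41 (YPL250C), which encodes a protein that acts with Atg9 in vesicle formation, read 1053, 1008 and 1062 in H2B K123R and 677, 561 and 492 in wild type. The H2B K123R arrays were close together, the wild-type arrays were spread, and the difference of 0.85 ± 0.12 gave a fold of 1.80 (limma adjusted p = 0.0181). ATG9, the membrane protein of the vesicles and a lipid scramblase, averaged 40.8 ± 1.22 in H2B K123R and 27.1 ± 1.33 in wild type. Its groups did not overlap, but it did not pass, with a difference of 0.40 (adjusted p = 0.0757). ATG2, the lipid transfer protein, and ATG18, its phosphoinositide-binding partner, differed by 0.27 and 0.21 with adjusted p of 0.313 and 0.348. ATG23 and ATG27, which help Atg9 to traffic, differed by 0.08 and -0.13 and had overlapping groups.

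Both measured genes particular to the phosphatidylinositol 3-kinase complex of autophagy lay wholly higher in H2B K123R, where 19.0% of all probe sets did. ATG14 (YBR128C), the subunit that directs the kinase to the site of vesicle formation, read 23.9, 22.0 and 26.1 in H2B K123R and 11.8, 13.1 and 13.3 in wild type. It passed with a difference of 0.48 ± 0.10 (limma adjusted p = 0.0369). All 3 wild-type signals were at background by the mouse controls. The size of the difference hung on the pseudocount, at 0.86 with 1, where it did not pass (adjusted p = 0.0633), and 0.20 with 64, and a fold is therefore left out. ATG38, the subunit that holds the complex together, read 247, 195 and 154 in H2B K123R and 153, 135 and 118.4 in wild type. The lowest H2B K123R array was just above the highest wild-type array, and ATG38 did not pass (difference 0.49 ± 0.19, limma adjusted p = 0.172). Its difference was 0.33 without H2B K123R replicate 1.

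None of the 9 genes of Atg8 and Atg12 conjugation passed limma's test, and 3 had an unadjusted p under 0.05, all with positive differences, where 24.9% of all probe sets had one in either direction. ATG10 (YLL042C), the conjugating enzyme of Atg12, had the smallest p of the step and read 151, 101.2 and 88.8 in H2B K123R and 55.1, 58.8 and 71.4 in wild type. The groups did not overlap, H2B K123R replicate 1 was the highest array, and the difference of 0.72 ± 0.20 (adjusted p = 0.0914) was 0.52 without it. ATG3, the conjugating enzyme of Atg8, averaged 93.5 ± 13.2 in H2B K123R and 64.5 ± 6.13 in wild type (difference 0.44, adjusted p = 0.122). ATG7, the activating enzyme that serves both conjugation systems, averaged 90.2 ± 1.36 and 66.9 ± 6.46 (difference 0.36, adjusted p = 0.136).

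ATG8 (YBL078C), the ubiquitin-like protein that coats the forming vesicle, was the brightest probe set of the conjugation step and read 470, 604 and 256 in H2B K123R and 289, 389 and 320 in wild type. Its H2B K123R arrays scattered on both sides of the wild-type arrays, and the 95% interval of its difference ran from -0.38 to 1.04. ATG4, the protease that trims Atg8, was dim, at 19.6 ± 0.76 in H2B K123R and 15.3 ± 0.49 in wild type, and its difference was 0.18 (adjusted p = 0.252). The probe sets of ATG5, to which Atg12 is joined, and ATG21, which recruits the Atg8 system to membrane, differed by 0.11 and 0.10. ATG12 and ATG16, the partner of the Atg12-Atg5 conjugate, read slightly lower in H2B K123R, by -0.15 and -0.16, with intervals that include 0, and ATG16 was at background on every array.

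Receptors and other genes of selective autophagy held 3 of the 10 rises, ATG33, ATG34 and ATG26, and 8 of the 10 probe sets of this step lay wholly higher in H2B K123R, where 19.0% of all probe sets did. ATG33 (YLR356W), a mitochondrial outer membrane protein needed for the autophagy of mitochondria in stationary phase, read 351, 406 and 365 in H2B K123R and 148, 174 and 148 in wild type. The groups were far apart, and the fold was 2.26 (difference 1.17 ± 0.11, limma adjusted p = 0.00638). ATG34 (YOL083W), the receptor that carries Ams1 to the vacuole in starved cells, read 143, 157 and 148 in H2B K123R and 55.4, 87.0 and 72.7 in wild type. Its fold was 1.91 (difference 0.93 ± 0.16, adjusted p = 0.0277). ATG26 (YLR189C), a sterol glucosyltransferase that is needed for the autophagy of peroxisomes in the yeast Pichia pastoris, read 487, 399 and 439 in H2B K123R and 287, 289 and 288 in wild type. Its wild-type arrays were nearly equal, all H2B K123R arrays were above them, and the fold was 1.501 (difference 0.59 ± 0.10, adjusted p = 0.0253).

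ATG19 (YOL082W), the receptor for Ape1 and Ams1 in growing cells, is the paralogue of ATG34. On its brighter probe set it read 597, 495 and 496 in H2B K123R and 372, 415 and 402 in wild type. The groups did not overlap, and the difference of 0.40 ± 0.11 did not pass (adjusted p = 0.0754). Its other probe set was at background on every array, at 6.05 ± 4.01 and 8.62 ± 2.40. ATG39 and ATG40, the receptors for the nuclear envelope and the cortical endoplasmic reticulum, averaged 34.8 ± 2.59 and 47.8 ± 17.96 in H2B K123R and 18.5 ± 5.28 and 28.2 ± 3.40 in wild type, with adjusted p of 0.0671 and 0.200. ATG32, the receptor for mitochondria, averaged 139 ± 17.4 in H2B K123R and 109 ± 5.67 in wild type (adjusted p = 0.217). ATG20, a sorting nexin, averaged 41.7 ± 3.42 and 28.2 ± 2.68 (adjusted p = 0.103), and ATG36, the receptor for peroxisomes, 60.8 ± 6.26 and 51.4 ± 11.04 with overlapping groups. ATG45 (YIL024C) read 140, 137 and 122 in H2B K123R and 83.8, 85.6 and 103 in wild type, without overlap and without passing (difference 0.48 ± 0.13, adjusted p = 0.0803).

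**Figure D3:**
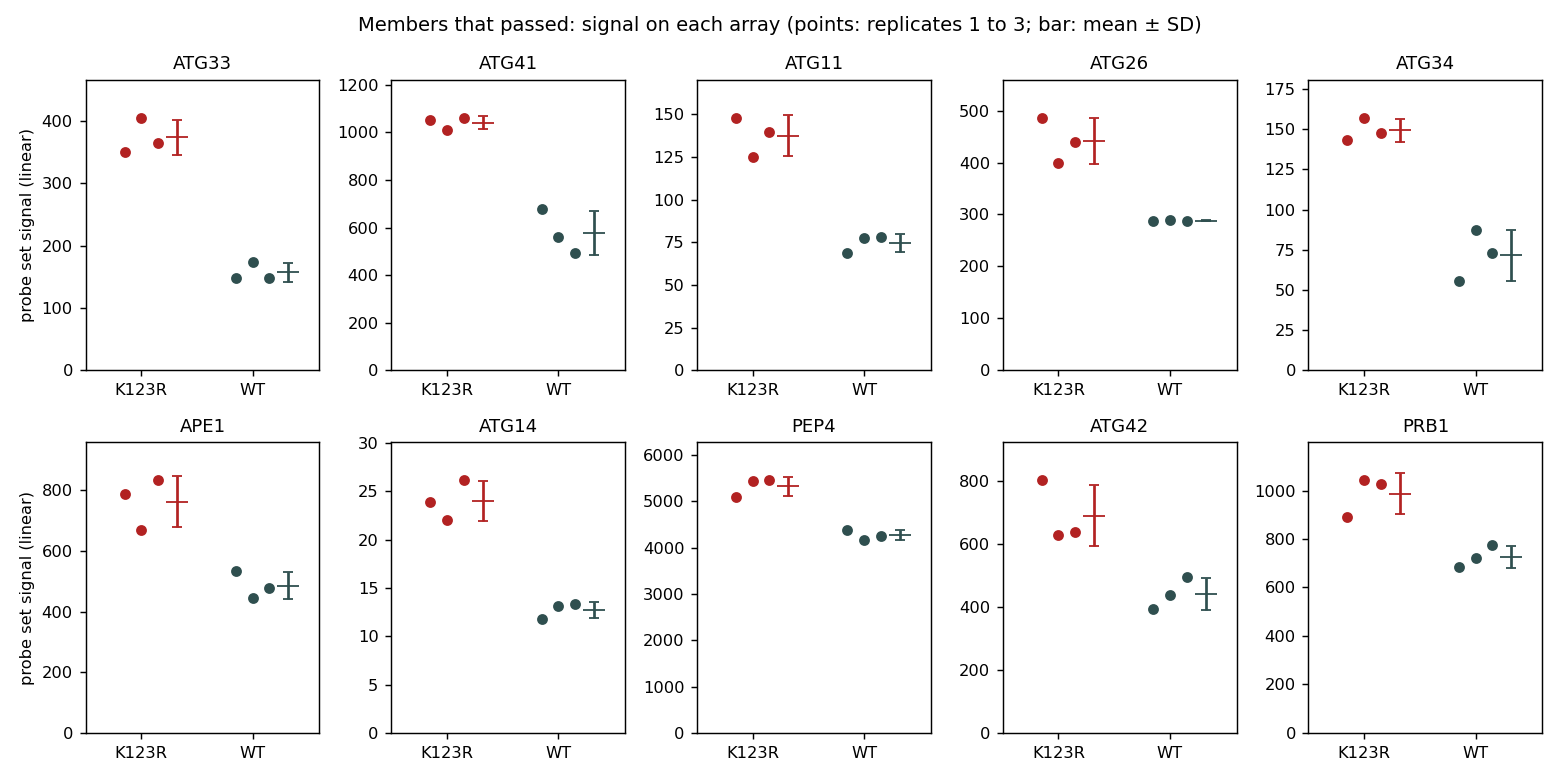
Linear probe set signal of the 10 genes that passed, in 1 panel each with the vertical axis starting at 0, showing replicates 1 to 3 as points from left to right and the mean ± SD beside them, H2B K123R in red left of wild type in dark grey. In each panel all 3 H2B K123R arrays lie above all 3 wild-type arrays, with means of 374 against 157 for ATG33, which has the largest fold of the 10.

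Of the 3 ATG genes that act inside the vacuole, 1 rose. ATG42 (YBR139W), a vacuolar serine carboxypeptidase, read 801, 629 and 636 in H2B K123R and 394, 436 and 493 in wild type. The fold was 1.54, with a difference of 0.62 ± 0.13 (limma adjusted p = 0.0434). ATG22, an exporter of amino acids from the vacuole, averaged 326 ± 91.8 in H2B K123R and 188 ± 29.4 in wild type. Its groups did not overlap, and its difference of 0.72 ± 0.22 had an adjusted p of 0.101.

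ATG15 (YCR068W), the lipase that opens autophagic bodies, was low on H2B K123R replicate 1 by all 3 of its probe sets. They read 2.19, 22.1 and 21.6 on that array, 126, 204 and 173 on H2B K123R replicate 2, and 81.0, 115 and 125 on H2B K123R replicate 3. On the wild-type arrays they read between 104 and 210. The differences of -1.01, -0.87 and -0.73 did not pass (adjusted p of 0.420 to 0.465) and were -0.12, -0.15 and -0.03 without that array. The probe sets share their target and do not count as independent readings of the gene.

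Of the 7 vacuolar protease genes, APE1, PEP4 and PRB1 rose, and PRC1, APE3, CPS1 and DAP2 did not pass. PEP4 (YPL154C) encodes proteinase A, the aspartyl protease that activates the other zymogens of the vacuole. It read 5083, 5434 and 5451 in H2B K123R and 4378, 4166 and 4250 in wild type, with no overlap and a small fold of 1.25 (difference 0.32 ± 0.07, limma adjusted p = 0.0385). PRB1 (YEL060C), the gene of the serine protease proteinase B, read 890, 1042 and 1028 in H2B K123R and 684, 720 and 774 in wild type. Its fold was 1.35 (difference 0.43 ± 0.10, adjusted p = 0.0467), and it did not pass after quantile normalization or cyclic loess. APE1 (YKL103C), the aminopeptidase that is the main cargo of the cytoplasm-to-vacuole pathway, read 787, 668 and 833 in H2B K123R and 532, 444 and 479 in wild type. Its fold was 1.55 (difference 0.63 ± 0.12, adjusted p = 0.0303).

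PRC1 (YMR297W), the gene of carboxypeptidase Y, read 2440, 2942 and 3005 in H2B K123R, on both sides of 2657, 2680 and 2693 in wild type. The 95% interval of its difference was -0.17 to 0.28. Without H2B K123R replicate 1, its lowest array, the difference was 0.15 (limma adjusted p = 0.134), and the other two H2B K123R arrays lay above all wild-type arrays. APE3 (YBR286W), aminopeptidase Y and the brightest probe set of the proteases, read 5630, 6559 and 5217 in H2B K123R and 6120, 5955 and 6153 in wild type. Its interval was -0.30 to 0.15, and the sign of its small difference of -0.07 turned after quantile normalization (0.034) and cyclic loess (0.021). DAP2, a dipeptidyl aminopeptidase of the vacuolar membrane, averaged 688 ± 139 in H2B K123R and 614 ± 22.0 in wild type (adjusted p = 0.593). Its difference of 0.14 was 0.004 without H2B K123R replicate 1. CPS1, the gene of carboxypeptidase S, read 53.7, 212 and 98.9 in H2B K123R and 76.8, 136 and 70.8 in wild type, with replicate 2 the highest array in both groups, and its interval of -0.87 to 1.25 leaves its direction unsettled. Whether the difference of PEP4, PRB1 and APE1 is larger than that of the other four was not tested.

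Each of the 3 genes for cytosolic inhibitors of these proteases rose. PAI3, whose product inhibits proteinase A, read 131, 78.0 and 104 in H2B K123R and 48.0, 37.9 and 41.6 in wild type, a fold of 2.03 (limma adjusted p = 0.0328). PBI2, whose product inhibits proteinase B, read 2497, 2244 and 2274 in H2B K123R and 1414, 1581 and 1455 in wild type, a fold of 1.57 (adjusted p = 0.0133). TFS1, whose product inhibits carboxypeptidase Y, read 599, 656 and 670 in H2B K123R and 415, 424 and 399 in wild type, a fold of 1.53 (adjusted p = 0.0164). The groups did not overlap for any of the 3. Of all probe sets 4.22% were called higher and 19.0% lay wholly higher in H2B K123R.

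**Figure D4:**
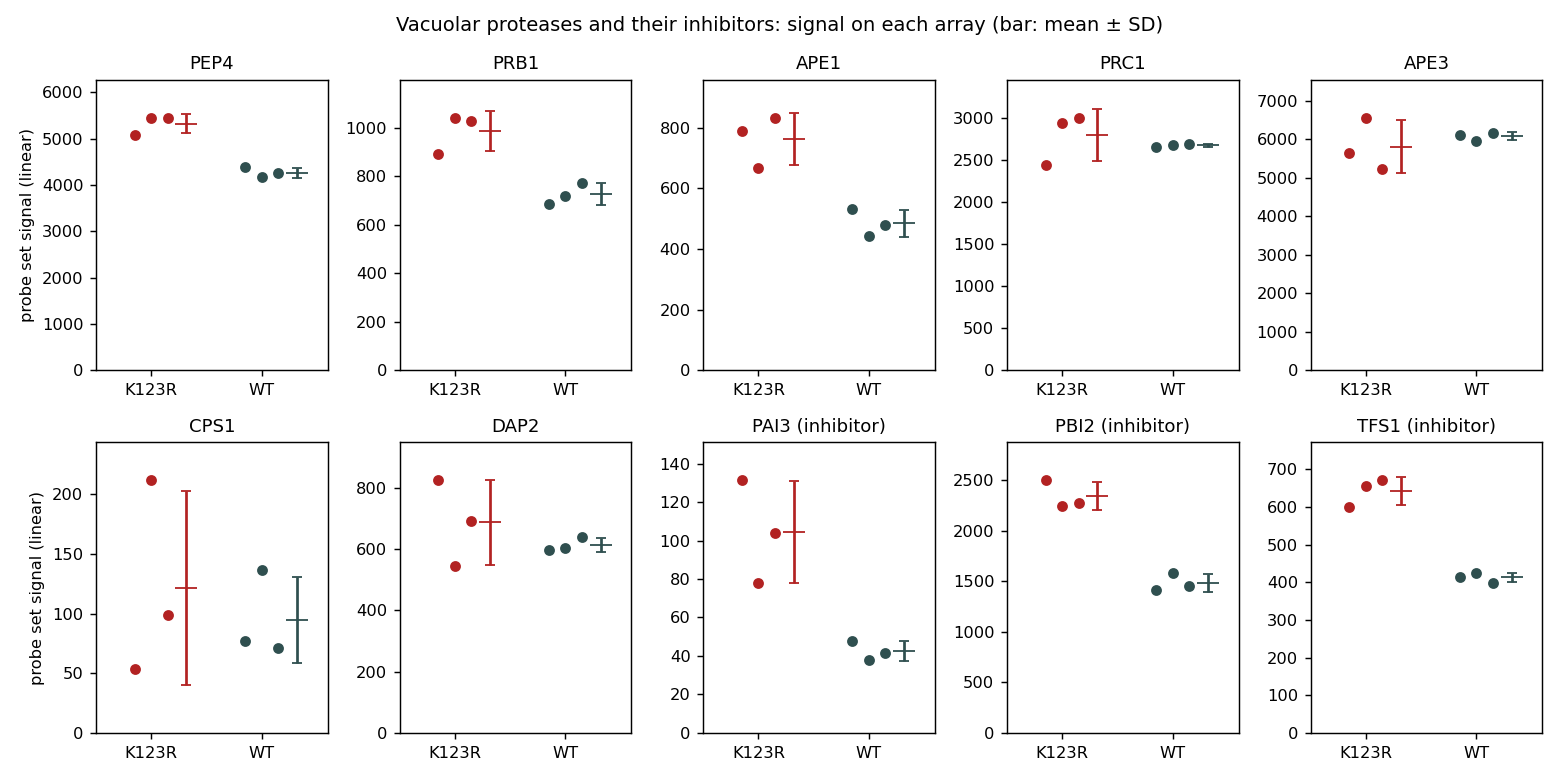
Linear probe set signal of the 7 vacuolar protease genes and the 3 genes of their inhibitors, with 1 panel per gene, the vertical axis starting at 0, replicates 1 to 3 as points from left to right and the mean ± SD beside them, H2B K123R in red left of wild type in dark grey. PEP4, PRB1, APE1 and the inhibitors PAI3, PBI2 and TFS1 are separated between the groups, while PRC1, APE3, CPS1 and DAP2 overlap.

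Other genes that work with these were taken from 8 lists, which include the inhibitors. The calls in each list stand beside 4.22% of all probe sets called higher and 2.47% called lower. Of the 6 other vacuolar hydrolases, AMS1 and PPN1 rose. AMS1, the alpha-mannosidase carried by Atg19 and Atg34, read 392, 333 and 327 in H2B K123R and 169, 166 and 171 in wild type, a fold of 1.98 (limma adjusted p = 0.00982). PPN1, a vacuolar polyphosphatase, averaged 677 ± 89.1 and 447 ± 7.95 (adjusted p = 0.0330). PHO8, ATH1, RNY1 and ECM14 had positive differences and did not pass.

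Of 10 partner genes without an ATG symbol, only SNX4 rose, where 4.22% of all probe sets were called higher. SNX4, whose sorting nexin pairs with Atg20, averaged 109 ± 16.8 in H2B K123R and 64.01 ± 3.18 in wild type (fold 1.56, limma adjusted p = 0.0485). VPS34, the catalytic lipid kinase that Atg14 directs, averaged 284 and 205 (difference 0.44, adjusted p = 0.0542), and its partners VPS15 and VPS30 differed by 0.26 and 0.20 without passing. Of 10 measured genes for fusion with the vacuole, YPT7 and VTI1 rose and none fell, where 4.22% of all probe sets were called higher and 2.47% lower. Of these 10, 5 lay wholly higher in H2B K123R and 1, MON1, wholly lower, against 19.0% and 13.5% of all. MON1 averaged 86.9 in H2B K123R and 99.4 in wild type and did not pass (limma adjusted p = 0.441). YPT7, the small GTPase of the vacuole, averaged 1039 ± 30.4 in H2B K123R and 766 ± 5.26 in wild type (fold 1.35, adjusted p = 0.0211), and VTI1, a fusion protein of the SNARE family, averaged 503 ± 87.8 and 314 ± 18.2 (fold 1.56, adjusted p = 0.0419). None of the 4 vacuolar amino acid exporter genes AVT3, AVT4, AVT6 and AVT7 passed limma's test or had an unadjusted p under 0.05.

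Of 22 probe sets for 14 genes that sense nutrients and restrain or trigger autophagy, 1 passed, a dim probe set of TOR1 at 1.89 ± 0.35 in H2B K123R and 9.16 ± 1.40 in wild type, both at background. The other 8 probe sets of TOR1 did not pass. The 3 brightest did not share a direction, with averages of 205, 172 and 118.1 in H2B K123R and 154, 186 and 167 in wild type. The averages of 172 and 118.1 include signals of 43.5 and 44.0 on H2B K123R replicate 1. Differences of the 3 were 0.376, -0.368 and -0.607 with that array and 0.359, 0.326 and -0.108 without it. NPR3, a subunit gene of the complex that restrains TOR when amino acids are short, averaged 64.9 in H2B K123R and 103 in wild type, without overlap and without passing (difference -0.55, adjusted p = 0.0844). GCN2, SCH9, SNF1 and RIM15, kinases of the amino acid, glucose and growth signals, did not pass. Of 10 transcriptional regulators of ATG genes, only GLN3, which encodes an activator of nitrogen-repressed genes, rose, with 99.1 ± 10.97 in H2B K123R and 58.8 ± 5.46 in wild type (fold 1.54, limma adjusted p = 0.0471). UME6, RPD3 and RPH1, which encode repressors of ATG genes, differed by -0.21, 0.11 and 0.01, and GCN4 by 0.08, none of which passed. SIN3, of the same list, averaged 444 ± 19.1 in H2B K123R and 361 ± 22.7 in wild type. Its groups did not overlap, and it did not pass (difference 0.29, limma adjusted p = 0.111). Of the 10 differences of this list, 7 were positive and 3 negative.

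Nitrogen-repressed genes, which cells switch on when good nitrogen sources run short, were examined beside the ATG genes. Of 21 probe sets for 17 such genes, 5 rose and none fell, where 4.22% of all probe sets were called higher and 2.47% lower. GAP1, the general amino acid permease gene, averaged 371 ± 59.4 in H2B K123R and 173 ± 20.5 in wild type (fold 2.03, limma adjusted p = 0.0180), and CAR1, the arginase gene, averaged 3145 ± 227 and 1825 ± 121 (fold 1.72, adjusted p = 0.0105). UGA1, DAL3 and PUT1, which serve the use of 4-aminobutyrate, allantoin and proline, rose 1.82-fold, 1.73-fold and 1.48-fold. MEP2, DUR3 and DAL80 did not pass, with differences of -0.23, -0.07 and 0.25. DAL1 and GDH2 lay wholly higher in H2B K123R without passing, with differences of 0.845 and 0.554 (limma adjusted p of 0.0532 and 0.0780). Of the 21 differences, 17 were positive and 4 negative. Both the ATG genes and this list were measured on the same 6 arrays, and the relation between them was not tested. Of the 15 probe sets called in the 8 lists, 11 were called without H2B K123R replicate 2, 1 without H2B K123R replicate 3 (AMS1) and none without wild-type replicate 1, 2 or 3. Limma gave all 15 an unadjusted p under 0.05 in these fits. They were picked by p-value on the same 6 arrays, so this is no separate support. The matching share of all probe sets was not counted. Calls among all probe sets fell in the same fits, from 620 to 500, 70, 59, 42 and 22.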

How the data were processed

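Total RNA of 3 H2B K123R and 3 wild-type cultures was labelled with biotin and hybridised to Affymetrix S98 arrays, per the labels' protocols. Groups came from the mutation label and replicate numbers from the titles. The labels do not say whether the triplicates had separate starter cultures, and the p-values cover only the spread among them. The authors deposited a linear intensity per probe set, already scaled: each array has a mean of 500.4 to 500.5 after trimming 2% at each end. How probes were summarized was not given in the sources used here. Precision is limited by having 3 arrays per group. Of 9335 probe sets 60 controls were left out. The platform annotation gave 6504 of the other 9275 a single gene symbol, 328 several and 2443 none. All 46 probe sets described matched the gene table of the R64 assembly, from which the systematic names come, and no symbol differed from it.

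Signals were taken as log2(signal + 16) with no further normalization and tested two-sided with limma 3.58.1 in R 4.3.3, using its empirical Bayes step with a variance trend. The p-values of all 9275 probe sets were adjusted together (Benjamini-Hochberg), and 0.05 was the threshold. Folds are on that log2 scale and understate the change of dim genes. Genes were grouped by step from hand-written lists. Signals on every array are given for genes that passed and, within each step, for the gene with the smallest p and the one with the highest signal; levels of different probe sets are not comparable. Genes of the other lists were named where they passed, and some that did not pass were picked out once their values were known. The genes and lists were chosen with earlier results of these data known. Replicate numbers were not used to pair cultures, because the labels do not state that equal numbers pair them. The deviations of same-numbered arrays from their group means correlated at 0.318, 0.382 and 0.0527 for numbers 1, 2 and 3. Between differently numbered arrays of the 2 groups the correlations were -0.392 to 0.023, so these values gave no ground for leaving pairing out. With a block on the number, 4 of the 46 probe sets passed, as given below. Tested on simulated data with 9275 probe sets, the fit recovered 28% of 100 probe sets changed 1.5-fold and 68% of 100 changed 2-fold, and 5.88% of its calls were false. The simulation was a single run with only upward changes. Its noise was independent and normal, with the same spread on every array. The real arrays were unequal, with weights of 0.18 for H2B K123R replicate 1 and 4.52 for replicate 3, so these rates may not hold for them.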

Additional observations from a re-analysis of the deposited data

How the results depend on the processing

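The 46 probe sets gave 10 calls and a median difference of 0.29, and the direction of the 10 genes that passed held in each alternative tried. As every H2B K123R array lay above every wild-type array for these 10, only quantile normalization and cyclic loess could have turned it. Across the fits that left out 1 array the calls among the 46 ranged from 0 to 10, those among all probe sets from 22 (without wild-type replicate 3) to 1023 (without H2B K123R replicate 1), against 620 with all arrays, and the median difference from 0.26 to 0.33. ATG33 passed in 5 of these 6 fits. With 1 probe set per gene, adjusted over genes, 16 passed, adding ATG39, ATG10, ATG45, ATG9, ATG22 and ATG19. The share of all genes that passed in that fit was not counted, so whether the increase is particular to these genes is not known. With array weights 24 passed, 23 higher and 1 lower (ATG12), and 2885 of all probe sets did; H2B K123R replicate 3 then had a weight of 4.52 and H2B K123R replicate 1 one of 0.18. With a block on the replicate number 4 of the 46 passed, ATG33, ATG41, ATG34 and APE1, and 307 of all, while 7 of the 15 probe sets called in the 8 other lists did, losing SNX4, YPT7, UGA1, DAL3, PUT1, TOR1, PPN1 and GLN3; each array's deviations correlated best with those of its own number. The median was 0.20 with a pseudocount of 64 and 0.21 after cyclic loess. Signs turned, without a call, for APE3 after quantile normalization (0.034) and cyclic loess (0.021), ATG21 after cyclic loess (-0.014) and ATG8 with array weights (-0.21). When single arrays were left out the difference of APE3 ranged from -0.164 to 0.0, and those of others spanned 0: ATG21 from -0.039 to 0.267, CPS1 from -0.259 to 0.595, ATG13 from -0.05 to 0.278 and ATG29 from -0.032 to 0.13. Without a variance trend PEP4, PRB1 and ATG42 did not pass and ATG9 did. The cause of these changes was not tested. Dimness limits the reading: 27 of the 46 probe sets averaged at or below the median of all probe sets, and 3 of them passed (11.1%). Of the 19 brighter ones 7 passed, against 9.42% of all brighter probe sets. Of the 620 calls among all 9275 probe sets, 437 were among the 4637 brighter ones.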
